A study of Saccharomyces cerevisiae with 8 samples.

Results

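The autophagy genes of budding yeast carry the symbol ATG and a number, and 32 of the 6034 coding targets measured in 8 libraries of poly-A RNA had such a symbol. They were chosen by that symbol alone, and all 32 passed the filter on low counts that left 5734 genes for testing. The libraries came from Saccharomyces cerevisiae of the laboratory strain W303a, kept at 30 °C in YPD (2% dextrose) until the OD600 was 0.2 to 0.4. They fall into 4 groups of 2 libraries. The control group stayed at 30 °C, the heat shock group was held at 39 °C for 5 min, and the other two groups had the same temperature steps in cells labelled with 5ph-IAA. Per the treatment protocol, Ifh1, a coactivator of ribosomal protein genes, was depleted with 1 µM β-estradiol and 5 µM 5ph-IAA for 30 min. 5ph-IAA is an auxin analogue that triggers the breakdown of a degron-tagged protein. The series' design text names anchor away instead, and no label states if the cells without 5ph-IAA were given solvent or β-estradiol, or were of the same tagged strain. A difference between cells with and without 5ph-IAA therefore holds all that differed between them.

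Autophagy encloses cytoplasm in a double membrane, the autophagosome, which fuses with the vacuole so that its content is broken down and reused. The Atg1 kinase complex starts the process when the growth kinase TORC1 is inactive, vesicles with Atg9 and a lipid kinase complex build the membrane, and a ubiquitin-like protein, Atg8, is joined to its lipids by a conjugation cascade that a second cascade, that of Atg12, assists. Receptors select cargo such as mitochondria, endoplasmic reticulum or the vacuolar enzymes of the cytoplasm-to-vacuole (Cvt) pathway, which runs in growing yeast. In rich medium most ATG genes are known to be transcribed at a low level, and ATG8 is known to be held down by Ume6 with the Sin3 and Rpd3 corepressors.

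The libraries held 7717767 to 21025464 estimated counts, with 21025464 and 19974567 in the heat shock group without 5ph-IAA and 10118860 or fewer in each of the others. A member had at least 28 counts in every library, and the median member had 151 and 161 counts in the control libraries and 1051 and 1050 in the heat shock libraries. The 2 libraries of a group differed beyond counting error (chi-square over genes divided by its degrees of freedom, 3.415 to 4.526). IFH1 mRNA stood at 24.1 and 22.6 TPM (transcript abundance per length, as a share of each library) in the control libraries and 26.6 and 23.99 with 5ph-IAA at 30 °C, and after heat shock at 10.1 and 9.06 without and 13.7 and 14.3 with 5ph-IAA, but the treatment acts on the protein, so this does not check the labels. Ribosomal protein genes held 40.2% ± 0.685 of TPM in the control group (mean ± SD, n = 2 libraries in this and all other groups), 19.6% ± 0.370 at 39 °C, 17.2% ± 0.0962 at 30 °C with 5ph-IAA and 10.3% ± 0.0256 at 39 °C with it. TPM is a share of all transcripts, so this difference in composition bears on every level given below, and in bulk RNA fewer cells and less RNA per cell cannot be told apart. The mating type of the strain was visible in the a-cell receptor gene STE2 with 399 to 405 TPM in the control libraries, whereas the alpha-cell receptor gene STE3 had 1.44 to 1.61. The a-cell pheromone genes MFA1 and MFA2, at 111 and 117 bases, were listed at 0 in all 8 libraries.

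Positions were taken from RefSeq R64 by systematic name, and the coding lengths of all 32 members equalled those in the deposited tables. ATG38 has 2 coding exons and the other 31 members have 1. No stretch of 31 bases of a member occurred in another coding sequence of R64, and the only coding overlap was that of ATG29 with SET6, over 24 bases on the opposite strand. The kit does not mark strand, so reads from that overlap cannot be told apart.

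The 300 bases before the start codon were searched on both strands for motifs of factors known to act on ATG or stress genes, and 4 promoters that carry the contrasts described below are shown, 5′ to 3′ on the gene's strand with motif matches in capitals. ATG8 and ATG19 (chromosomes II and XV) were the members that held all of the Ume6 core GCCGCC, the GATA motif GATAAG and the stress response element AGGGG. ATG27 (chromosome X) is transcribed away from a ribosomal protein gene and holds a match to the Rap1 core ACCCANNCA, a motif added after the positions had been seen. ATG41 (chromosome XVI), the member with the largest rise on heat shock, had no match to any motif searched. The windows are chrII:80732-81031 on the minus strand for ATG8, chrXV:168427-168726 on the plus strand for ATG19, chrX:90098-90397 on the minus strand for ATG27 and chrXVI:74720-75019 on the minus strand for ATG41.
ATG8: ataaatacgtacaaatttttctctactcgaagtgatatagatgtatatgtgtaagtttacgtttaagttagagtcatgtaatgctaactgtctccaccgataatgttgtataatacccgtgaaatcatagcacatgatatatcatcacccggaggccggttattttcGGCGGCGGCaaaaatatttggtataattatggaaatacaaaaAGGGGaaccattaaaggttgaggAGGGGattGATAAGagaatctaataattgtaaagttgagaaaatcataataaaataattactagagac
ATG19: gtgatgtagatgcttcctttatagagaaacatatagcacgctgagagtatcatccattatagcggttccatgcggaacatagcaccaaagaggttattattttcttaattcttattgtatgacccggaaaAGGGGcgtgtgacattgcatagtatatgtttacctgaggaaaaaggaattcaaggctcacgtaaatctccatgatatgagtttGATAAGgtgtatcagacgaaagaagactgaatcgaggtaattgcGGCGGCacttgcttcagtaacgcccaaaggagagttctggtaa
ATG27: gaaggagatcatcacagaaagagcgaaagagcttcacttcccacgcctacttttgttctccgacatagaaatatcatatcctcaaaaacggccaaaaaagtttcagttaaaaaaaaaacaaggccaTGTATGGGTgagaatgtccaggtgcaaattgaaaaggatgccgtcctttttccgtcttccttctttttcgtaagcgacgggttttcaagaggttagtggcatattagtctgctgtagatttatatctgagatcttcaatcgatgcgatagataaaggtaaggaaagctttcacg
ATG41: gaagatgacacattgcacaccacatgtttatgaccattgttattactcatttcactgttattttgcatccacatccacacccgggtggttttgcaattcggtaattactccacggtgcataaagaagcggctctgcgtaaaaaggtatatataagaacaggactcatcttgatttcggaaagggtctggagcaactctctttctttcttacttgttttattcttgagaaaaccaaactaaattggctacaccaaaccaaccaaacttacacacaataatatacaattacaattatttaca
In the ATG8 window the AGGGG matches start 91 and 68 bases before the start codon, 2 overlapping GCCGCC matches on the other strand lie at 133 and 130, and GATAAG lies at 60. In the ATG19 window the same motifs lie at 170, 43 and 87 bases before the start codon.

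Over all members, GATAAG was present in 11 of 32 promoters (34.4%) against 14.7% of the 5993 promoters of the same length in R64. AGGGG was present in 9 (28.1%) against 22.2%, GCCGCC in 2 (6.25%) against 5.21%, and the Rap1 core in 1 (3.12%) against 3.22%. The heat shock element, written as 3 alternating GAA and TTC units set 2 bases apart, matched 0 members and 0.868% of all promoters. The windows, of members and of all genes, were not cut at neighbouring genes. The GATAAG of ATG14, 271 bases before its start codon, lies within OPY1, the gene 237 bases upstream. A match is a run of letters and does not show that a factor binds, and no match says only that these letters are not in the window.

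At 30 °C without 5ph-IAA the ATG genes were scarce messages. Together they made up 0.0575% and 0.0562% of TPM in the control libraries. ATG27, which encodes a membrane protein that moves with Atg9, was highest with 113 and 115 TPM, followed by ATG5, the acceptor of Atg12, with 55.5 and 56.7. ATG33, a gene of mitochondrial autophagy (36.2 and 39.02 TPM), and ATG19, the receptor of the Cvt pathway (34.6 and 34.6 TPM), followed, and both libraries of ATG33 lay above both of ATG19. ATG8 came next with 30.2 and 31.6 TPM. At the other end stood ATG9, the membrane protein of the vesicles that seed the autophagosome, with 2.60 and 2.76 TPM, and ATG2, its lipid transfer partner, with 2.80 and 2.77. ATG7, the activating enzyme of both conjugation cascades, had 3.87 and 3.64 TPM and ATG1 had 4.17 and 4.16. The values of ATG9 and ATG2 did not overlap, but their means differed by less than the SD of ATG9.

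**Figure D1:**
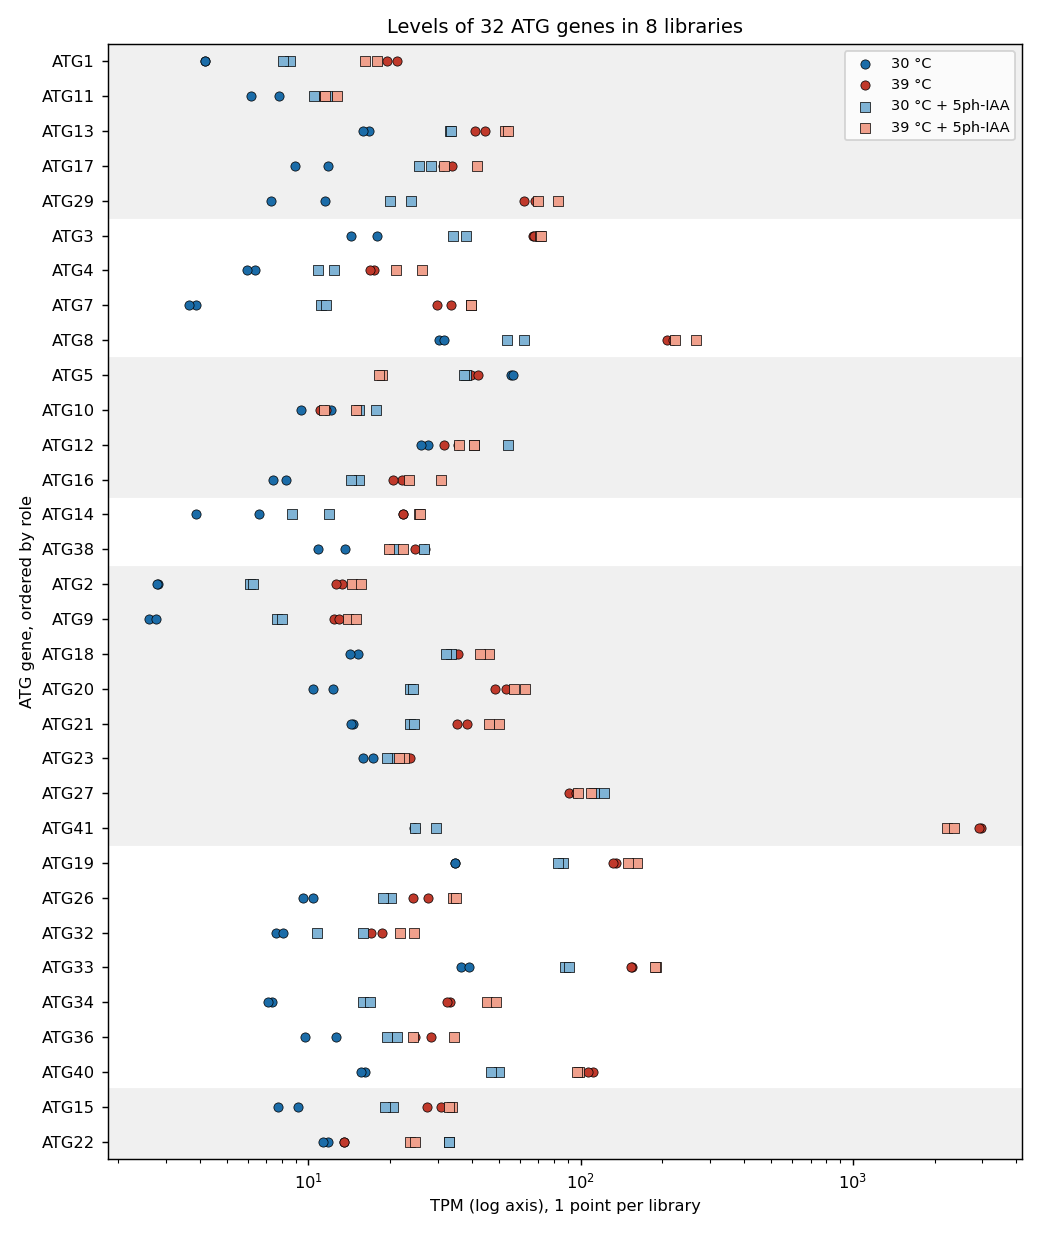
Level of each of the 32 ATG genes in TPM (log axis, 1 point per library) in the 4 groups, with genes ordered by role on the vertical axis. ATG41 lies between 24.3 and 29.5 TPM in all 30 °C libraries and between 2227 and 2960 in all 39 °C libraries, while ATG5 is the gene whose heat shock libraries lie furthest below its control libraries.

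Heat shock without 5ph-IAA compared 39 °C with 30 °C in cells in which Ifh1 was not depleted. Within 5 min the summed share of the ATG genes went from 0.0575% and 0.0562% of TPM to 0.442% and 0.437%, a ratio of means of 7.74. Most of that sum was ATG41, which held 4.30% and 4.33% of all ATG transcripts at 30 °C and 66.9% and 66.7% at 39 °C, and without it the ratio was 2.69. Both heat shock libraries lay above both control libraries, and an exact two-sided permutation test over these 4 libraries gave p = 0.333, its smallest possible value. Gene by gene, 27 of 32 members rose, against 42.5% of all genes tested, and 2 fell, against 39.7% (quasi-likelihood test of edgeR, Benjamini-Hochberg adjusted p under 0.05 over all genes tested). The median log2 fold change of the members was 1.44, and that of all tested genes was 0.04. Changes of single genes are given throughout as log2 fold change ± SE. At least 2-fold rises were called in 24 members, against 19% of all genes. Both heat shock libraries exceeded both control libraries in TPM for 29 members, against 52.1% of genes, and lay below them for 2, against 38.5%.

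ATG41, also known as ICY2 and needed for the movement of Atg9, lies on chromosome XVI at 74309 to 74719. Its level went from 24.7 and 24.3 TPM to 2959.7 and 2916. The log2 fold change was 6.77 ± 0.07 (109-fold, edgeR adjusted p = 6.06e-17), the largest of the 32. RPL36B, the ribosomal protein gene that lies 979 bases upstream of ATG41 on the same strand, fell by 0.90 on the log2 scale.

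The Atg8 conjugation genes rose together, 4 of 4. ATG8 (chromosome II, 80378 to 80731), whose product coats the growing membrane, went from 30.2 and 31.6 TPM to 208 and 218, a log2 change of 2.66 ± 0.13 (edgeR adjusted p = 1.42e-10). ATG7 went from 3.87 and 3.64 TPM to 33.3 and 29.8, a log2 change of 2.94 ± 0.09 (edgeR adjusted p = 1.65e-12), the second largest among the members. ATG3, the enzyme that passes Atg8 to its lipid, rose by 1.93 ± 0.10, and ATG4, the protease that prepares and releases Atg8, by 1.35 ± 0.12. Both heat shock libraries of these genes lay above both control libraries in TPM, as in 52.1% of all genes.

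The 4 genes listed under the Atg12 cascade did not follow as a set. Of them 1 rose, 1 fell and 2 were not called. ATG7, which acts in both cascades and rose, was counted with the Atg8 genes. ATG5 (chromosome XVI, 271310 to 272194) went from 55.5 and 56.7 TPM to 39.5 and 41.9, a log2 change of −0.59 ± 0.08 (edgeR adjusted p = 6.1e-06), and both heat shock libraries lay below both control libraries. ATG16, which pairs the Atg12 and Atg5 conjugate into a larger complex, rose by 1.31 ± 0.25 on the log2 scale. ATG12 itself had a log2 change of 0.20 ± 0.16 (edgeR adjusted p = 0.283) and ATG10, its conjugating enzyme, of −0.06 ± 0.26 (edgeR adjusted p = 0.837). ATG10 was also the member whose TPM values overlapped between the groups, with 9.38 and 12.1 at 30 °C and 11.04 and 11.5 at 39 °C. The neighbours of ATG5 were YPL150W on the same strand, which rose by 0.85, and PPT2 in convergent orientation, with 99 bases between them, which was not called (log2 fold change 0.33).

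All 5 members of the Atg1 kinase complex and its scaffolds rose. ATG1 (chromosome VII, 160065 to 162758) went from 4.17 and 4.16 TPM to 21.2 and 19.4, a log2 change of 2.15 ± 0.09 (edgeR adjusted p = 3.24e-11). ATG29, a subunit of the scaffold with Atg17, went from 11.5 and 7.26 TPM to 62.1 and 67.7, a log2 change of 2.67 ± 0.16 (edgeR adjusted p = 2.09e-09). SET6, which overlaps ATG29, rose as well, by 2.02 on the log2 scale. ATG17, the scaffold of starvation autophagy, rose by 1.52 ± 0.13, ATG13, the regulatory subunit that TORC1 phosphorylates, by 1.26 ± 0.06, and ATG11, the scaffold of selective autophagy, by 0.56 ± 0.10. ATG11 thus had the smallest rise of the complex.

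Both members that encode subunits of the lipid kinase complex rose. ATG14, the subunit that brings the kinase to the site of autophagosome formation, went from 6.60 and 3.85 TPM to 22.2 and 22.2, a log2 change of 1.96 ± 0.19 (edgeR adjusted p = 3.26e-07). Its control libraries differed more from each other than its heat shock libraries did. ATG38, which links subunits of the complex, rose by 0.94 ± 0.17.

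Among the genes for Atg9 vesicles, lipid transfer and binding of phosphatidylinositol 3-phosphate, 7 of 8 rose and ATG27 fell. ATG9 (chromosome IV, 184925 to 187918) went from 2.60 and 2.76 TPM to 12.4 and 12.9, a log2 change of 2.11 ± 0.10 (edgeR adjusted p = 8.44e-11). ATG27 (chromosome X, 89282 to 90097) went from 113 and 115 TPM to 90.8 and 95.9, a log2 change of −0.42 ± 0.07 (edgeR adjusted p = 4.12e-05). Its share of all ATG transcripts was 19.7% and 20.5% at 30 °C and 2.05% and 2.19% at 39 °C, so the most abundant member of the control group ranked 6 after heat shock. RPL17B, the ribosomal protein gene read in the opposite direction from the far side of 688 bases, fell by 1.45 on the log2 scale in the same comparison. ATG2 rose by 2.09 ± 0.08, the sorting nexin gene ATG20 by 2.04 ± 0.07, the lipid-binding genes ATG18 and ATG21 by 1.12 ± 0.08 and 1.21 ± 0.08, and ATG23, a partner of ATG27, by 0.33 ± 0.08.

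All 7 members grouped here under selective autophagy rose. ATG40, a receptor for the endoplasmic reticulum, went from 16.1 and 15.6 TPM to 111 and 106, a log2 change of 2.64 ± 0.08 (edgeR adjusted p = 9.65e-13). ATG34, a paralogue of ATG19 that takes in a vacuolar enzyme during starvation, rose by 2.05 ± 0.09 and ATG19 by 1.82 ± 0.06. These 2 genes lie in a row on chromosome XV with 1774 bases between them. ATG33 rose by 1.90 ± 0.08, the mitochondrial receptor gene ATG32 by 1.06 ± 0.14, the peroxisome receptor gene ATG36 by 1.11 ± 0.16 and the sterol glucosyltransferase gene ATG26 by 1.24 ± 0.06. Of the 2 vacuolar genes, ATG15, the lipase that opens autophagic bodies, rose by 1.65 ± 0.11, while ATG22, an exporter of amino acids from the vacuole, had a log2 change of 0.09 ± 0.08 (edgeR adjusted p = 0.293).

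**Figure D2:**
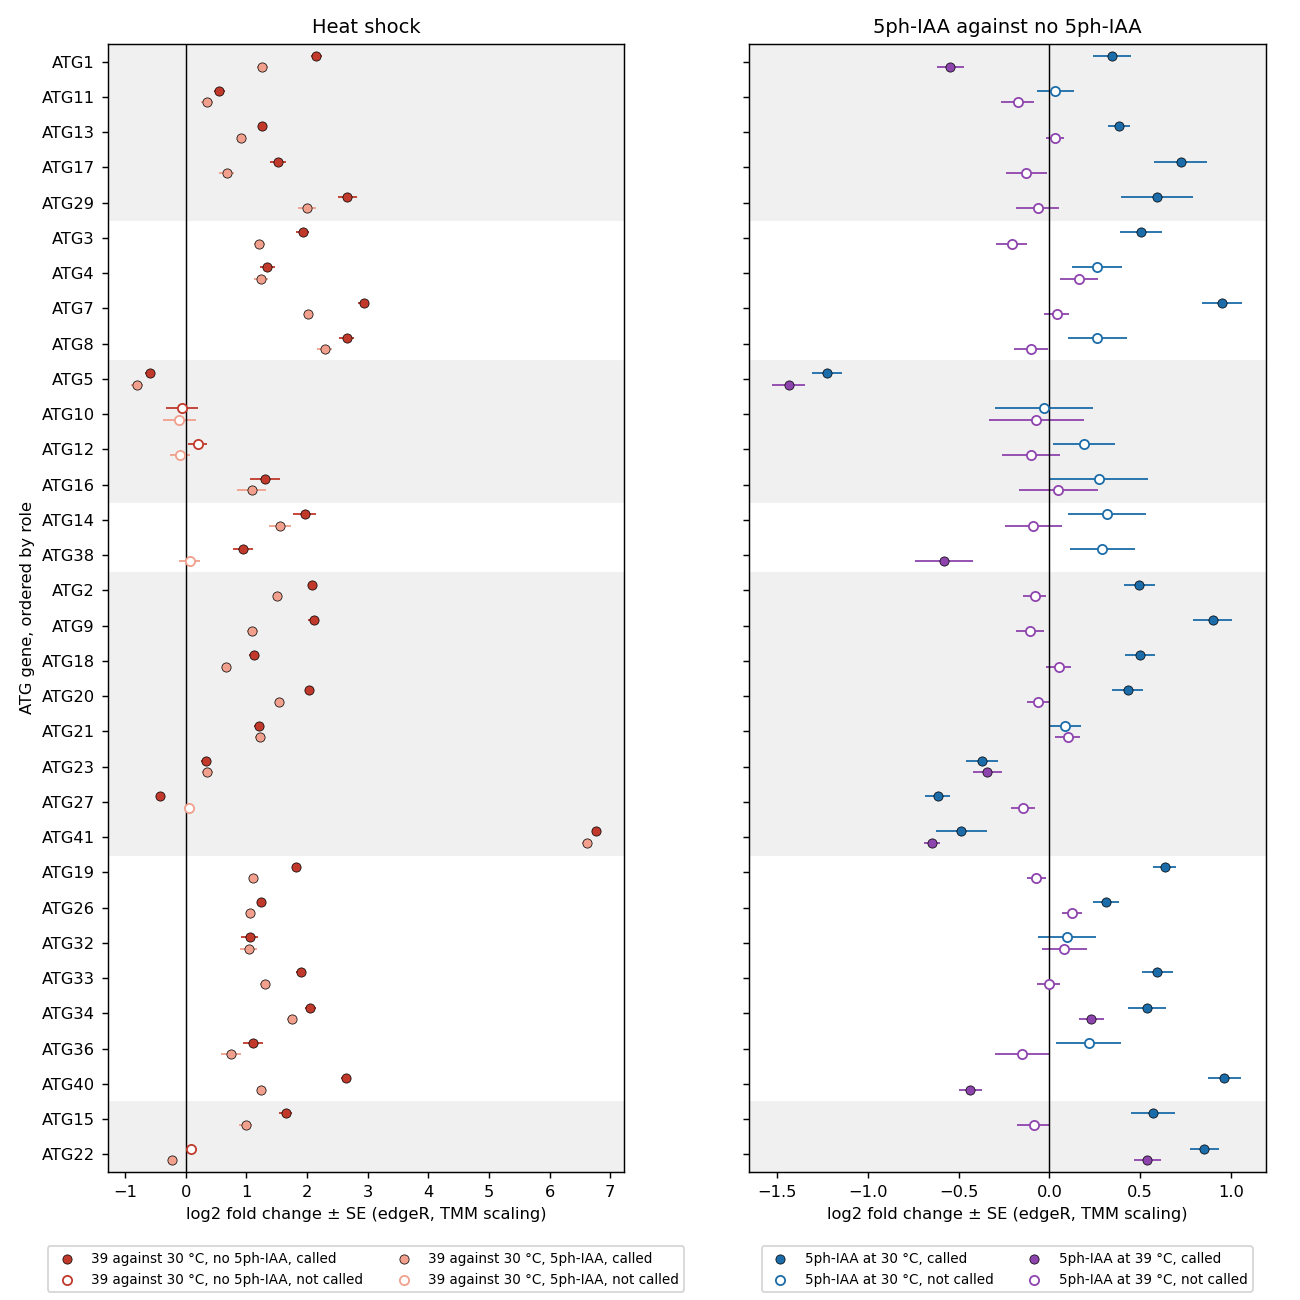
Log2 fold change ± SE of each ATG gene (edgeR, TMM scaling) for heat shock on the left and for 5ph-IAA on the right, with filled points for genes past the threshold and open points for the others. Nearly all heat shock points lie right of 0, with ATG41 at 6.77 and 6.61, whereas the points for 5ph-IAA at 39 °C gather around 0 apart from ATG5 at −1.44 and a few others.

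The order of the messages changed accordingly. At 39 °C without 5ph-IAA, ATG41 stood first with 2938 ± 31.2 TPM (mean ± SD, n = 2), followed by ATG8 with 213 ± 7.05, ATG33 with 154 ± 0.507, ATG19 with 133 ± 2.79 and ATG40 with 108 ± 3.16. Each of these differed from its neighbour by more than the SDs. ATG10 and ATG11 were lowest with 11.3 ± 0.361 and 11.2 ± 0.220 TPM and did not differ beyond their spread.

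The 11 members with GATAAG in the promoter window had a median log2 fold change of 1.90 on heat shock, and all 11 rose. Of the 21 members without it 16 rose and 2 fell, with a median of 1.24. For AGGGG the medians were 2.04 in the 9 members with it and 1.31 in the 23 without it. The 11 include ATG14, whose match lies within OPY1. These splits are descriptions that were not computed over all genes, and no test was made of them.

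**Figure D3:**
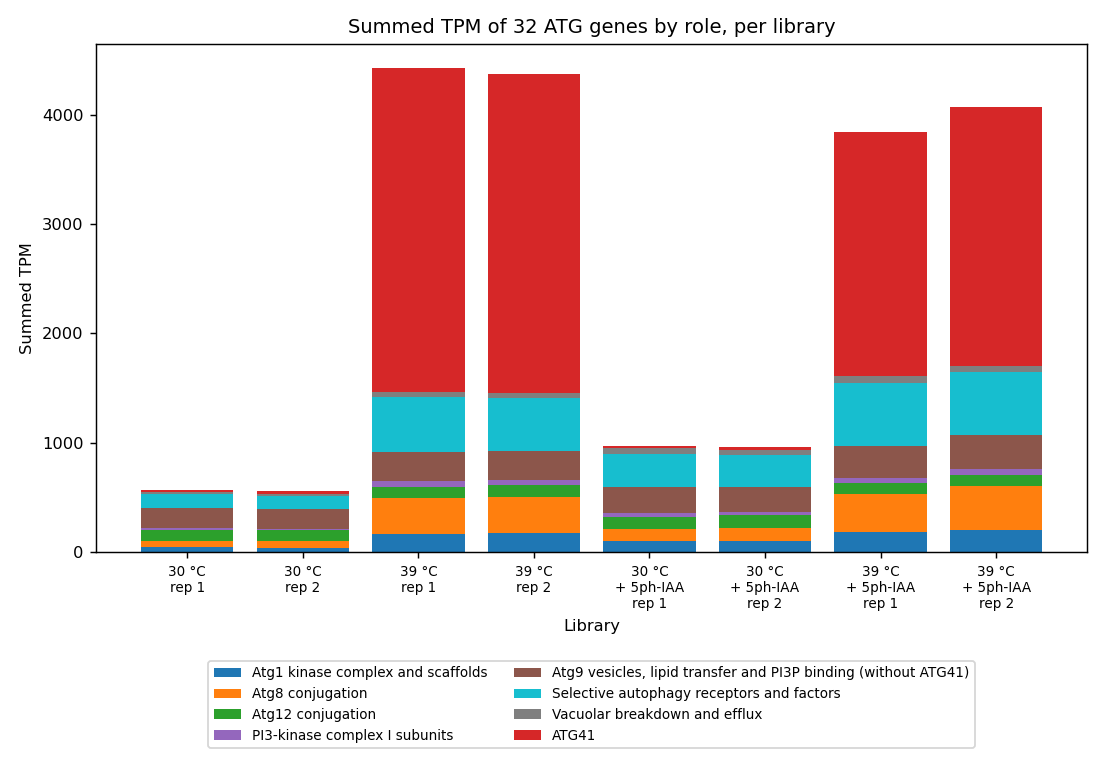
Summed TPM of the 32 ATG genes in each library, stacked by role, with ATG41 drawn apart in red. ATG41 makes up 58.1% to 66.9% of the sum in the 39 °C libraries and 2.54% to 4.33% in the 30 °C libraries.

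Genes of the wider pathway that lack an ATG symbol in the deposited tables were described from lists of known components. ATG39 (YLR312C), a receptor for the nuclear envelope and endoplasmic reticulum whose symbol is given by RefSeq only, went from 1.68 and 1.61 TPM to 48.9 and 50.2, a log2 change of 4.78 ± 0.12 (edgeR adjusted p = 8.79e-14). That is larger than the change of any member other than ATG41. ATG31, the third subunit of the Atg17 scaffold, rose by 1.42 ± 0.14, ATG42, a vacuolar carboxypeptidase, by 2.53 ± 0.05, VPS30, the lipid kinase subunit also called ATG6, by 1.09 ± 0.08, and SNX4, the sorting nexin also called ATG24, by 1.86 ± 0.07. ATG44, a mitochondrial fission factor with a target of 222 bases, was not called (log2 fold change −0.29 ± 0.24, edgeR adjusted p = 0.293).

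Beside 42.5% of all genes higher and 39.7% lower, Cvt cargo and vacuolar hydrolases rose in 8 of 8 cases, led by the Cvt cargo APE1 (2.71 ± 0.05) and the vacuolar protease PRB1 (2.48 ± 0.06). Of 20 partners in membrane formation and fusion 15 rose and 2 fell, with SNX4 and the lipid kinase VPS34 (1.11 ± 0.08) the largest rises and the fusion proteins VAM3 (−0.38 ± 0.08) and YKT6 (−0.19 ± 0.06) the falls. Of 17 genes of TORC1 and the kinases upstream of Atg1 and Atg13, 12 rose and 3 fell. LST8, a shared subunit of both TOR complexes, rose by 4.95 ± 0.06, while TPK3, a catalytic subunit of protein kinase A, changed by −1.06 ± 0.07 and the TORC1 target SCH9 by −0.83 ± 0.06. Of 12 known transcription regulators of ATG genes 9 rose and 2 fell. The largest rises were those of DHH1, an RNA helicase of mRNA decay (1.33 ± 0.06), and the stress factor MSN2 (1.16 ± 0.06), and the falls those of GCN4, the activator of amino acid synthesis genes (−1.29 ± 0.05), and SPT10 (−0.62 ± 0.08).

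5ph-IAA at 30 °C compared unstressed cells labelled with and without 5ph-IAA. Of the 32 members 17 rose, against 23.6% of genes tested, 4 fell, against 28.1%, and 11 were not called (edgeR, TMM scaling). The median log2 fold change was 0.33, and that of all tested genes was −0.02. The summed share of the members was 0.0575% and 0.0562% of TPM without 5ph-IAA and 0.0975% and 0.0967% with it, a ratio of means of 1.71 (exact permutation test, two-sided, p = 0.333, the smallest it can give). Counted outside the ribosomal protein genes, whose share was 40.2% without and 17.2% with 5ph-IAA, the ratio was 1.23. The split of calls was the same 17 and 4 with RLE scaling, with TMM factors computed without ribosomal protein genes and with DESeq2. It differed with library totals alone and with TPM values. Scaled by library totals alone, 27 members were called higher and 2 lower, against 69.1% and 8.77% of genes, while the median of all genes stood at 0.38, and by limma on log2(TPM + 1) values 29 were higher and 1 lower, against 84.8% and 4.81%, while it stood at 0.61. Both libraries with 5ph-IAA lay above both without it in TPM for 30 members, against 89% of genes, and below them for 1, against 5.95%. Relative to the median of all genes the members' median was 0.35, 0.35 and 0.28 higher under the 3 scalings.

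The largest rises with TMM scaling were those of ATG40, ATG7, ATG9 and ATG22. ATG40 went from 16.1 and 15.6 to 50.1 and 47.1 TPM, a log2 change of 0.97 ± 0.09 (edgeR adjusted p = 1.2e-06). ATG7 went from 3.87 and 3.64 to 11.1 and 11.6 TPM (0.95 ± 0.11, edgeR adjusted p = 9.58e-06), and ATG9 from 2.60 and 2.76 to 7.67 and 7.99 (0.90 ± 0.11, edgeR adjusted p = 1.29e-05). ATG9 and ATG7 stood at or near the bottom of the control group, as did ATG2 and ATG1, whose changes were 0.50 ± 0.09 and 0.34 ± 0.10. A relation of change to level was not tested. ATG22, not called on heat shock, went from 11.8 and 11.3 to 32.8 and 32.8 TPM, a log2 change of 0.85 ± 0.08 (edgeR adjusted p = 1.02e-06). In all 4 genes both libraries with 5ph-IAA lay above both without it in TPM, as in 89% of all genes.

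By role, 4 of 5 genes of the Atg1 complex, 2 of 4 of the Atg8 cascade, 4 of 8 of the Atg9 and lipid group, 5 of 7 of the selective group and both vacuolar genes rose, while 3 of the 8 in the Atg9 and lipid group fell. None of the 4 genes listed under the Atg12 cascade rose and 1 fell, with ATG7, which rose, counted under the Atg8 cascade. Neither of the 2 members in the lipid kinase complex was called. With VPS30, which lacks an ATG symbol in the deposited tables, 1 of 3 listed subunits rose. ATG1 went from 4.17 and 4.16 to 8.56 and 8.05 TPM with a log2 change of 0.34 ± 0.10 (edgeR adjusted p = 0.015), a call lost without replicate 1 of the control (adjusted p = 0.0822) or replicate 1 of the 5ph-IAA group (0.0544). ATG29 (0.59 ± 0.20) lost its call without replicate 2 of the control (edgeR adjusted p = 0.238) or of the 5ph-IAA group (0.164). ATG8 went from 30.2 and 31.6 to 53.5 and 61.9 TPM and was not called under TMM scaling (0.26 ± 0.16, edgeR adjusted p = 0.192). With library totals alone it was 0.66 higher (edgeR adjusted p = 0.00247). ATG14 was not called either (0.32 ± 0.22, edgeR adjusted p = 0.238), and its libraries spread widely, with 6.60 and 3.85 TPM against 11.9 and 8.70. The other members called higher were ATG13, ATG17, ATG3, ATG2, ATG18, ATG20, ATG19, ATG26, ATG33, ATG34 and ATG15, with log2 fold changes of 0.31 to 0.72. Not called, beside ATG8, ATG14 and ATG10, were ATG38, ATG16, ATG4, ATG36, ATG12, ATG32, ATG21 and ATG11, with values between 0.03 and 0.29.

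ATG5 went the other way. Its level was 55.5 and 56.7 TPM without 5ph-IAA and 37.8 and 37.2 with it, a log2 change of −1.23 ± 0.08 (edgeR adjusted p = 4.13e-08). It stayed lower when scaled by library totals (−0.83) and in log2(TPM + 1) (−0.57), where it was the member called lower. Its neighbours YPL150W and PPT2 were not called (log2 fold changes 0.06 and 0.29).

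The sizes and signs of the other falls depended on the unit and scaling. ATG27 fell by 0.62 ± 0.07 with TMM (edgeR adjusted p = 6.3e-06) and by 0.22 with library totals alone (edgeR adjusted p = 0.0129), but stood at 0.03 on the log2(TPM + 1) scale. Its TPM values overlapped, with 113 and 115 against 122 and 112. RPL17B, its divergent neighbour, fell by 2.00 on the log2 scale. ATG23 had a log2 change of −0.37 ± 0.09 (edgeR adjusted p = 0.0031) with TMM, 0.03 when scaled by library totals and 0.26 in log2(TPM + 1). ATG41 had −0.49 ± 0.14 with TMM (edgeR adjusted p = 0.0102) and 0.13 on the log2(TPM + 1) scale, and its call was lost without replicate 2 of the control (adjusted p = 0.0615) or replicate 1 of the 5ph-IAA group (0.121). ATG10 changed sign as well, from −0.03 to 0.58.

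**Figure D4:**
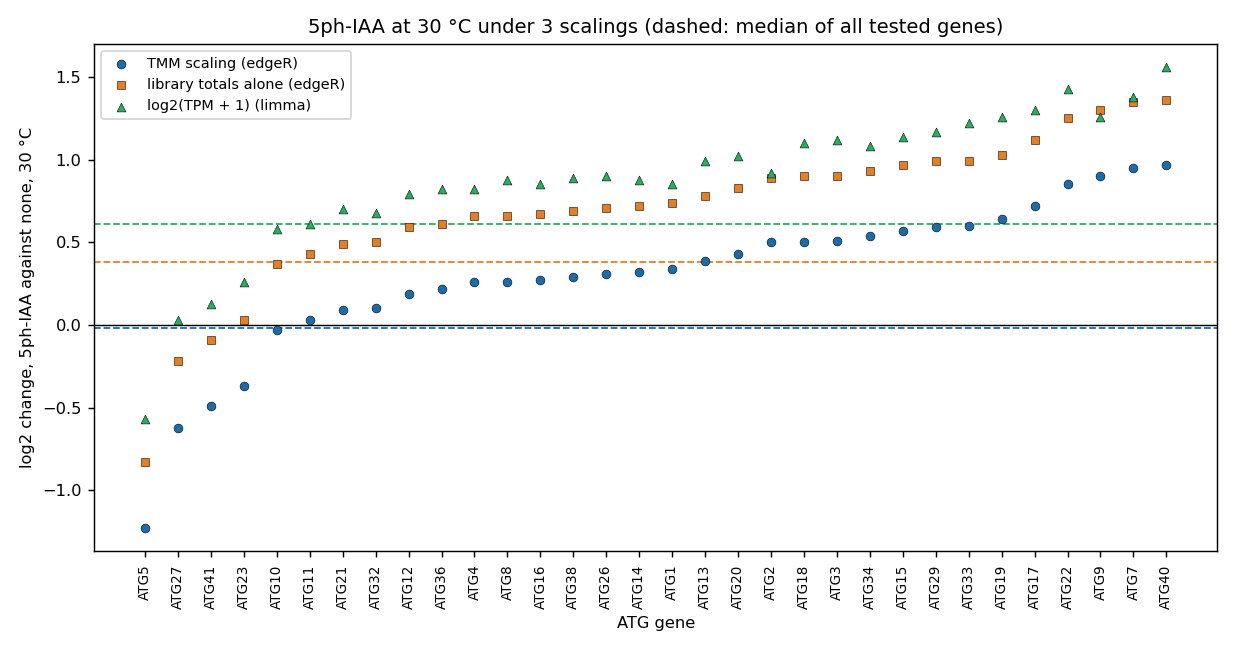
Log2 change with 5ph-IAA at 30 °C of each ATG gene under 3 scalings, with dashed lines at the median of all tested genes under each (−0.02 for TMM, 0.38 for library totals, 0.61 for log2(TPM + 1)). Changing the scaling moves the points and the dashed line up together, and ATG5 lies below 0 under all 3.

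In the wider pathway ATG39 rose from 1.68 and 1.61 to 6.88 and 6.78 TPM (1.40 ± 0.17, edgeR adjusted p = 1.49e-05) and ATG42 by 0.74 ± 0.06. The list counts here stand beside 23.6% of all genes higher and 28.1% lower, and 4 of 17 higher and 3 of 12 lower are near those shares. Among Cvt cargo and hydrolases 3 of 8 rose, led by APE1 (0.72 ± 0.05) and the protease PEP4 (0.47 ± 0.06), and the carboxypeptidase CPS1 fell (−0.33 ± 0.06). Of the 17 TORC1 and kinase genes 4 rose and TOR1 fell (−0.20 ± 0.07), among the risers the protein kinase A subunit TPK2 (0.60 ± 0.06). Of the 12 regulators 5 rose, led by MSN4 (0.64 ± 0.06) and MSN2 (0.60 ± 0.06), and 3 fell, led by GCN4 (−0.70 ± 0.05) and SPT10 (−0.34 ± 0.08). Of the 20 partners 8 rose, led by the fusion protein VAM7 (0.53 ± 0.14) and the vesicle tether subunit TRS85 (0.36 ± 0.09), and YKT6 fell (−0.26 ± 0.06).

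Heat shock with 5ph-IAA compared 39 °C with 30 °C in cells labelled with 5ph-IAA. The ATG share of TPM went from 0.0975% and 0.0967% to 0.384% and 0.407%, a ratio of means of 4.07, or 1.76 without ATG41 (exact permutation test, two-sided, p = 0.333, the smallest it can give). Of the members 26 rose, against 38% of genes tested, and 2 fell, against 38.3%, with a median log2 fold change of 1.09 where that of all genes was 0.01. All 26 were among the 27 that rose without 5ph-IAA, and the remaining one, ATG38, was not called. At least 2-fold rises were called in 19 members, against 14.4% of genes. In TPM both 39 °C libraries lay above both 30 °C libraries for 25 members, against 32.6% of genes, and below them for 4, against 55.7%.

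ATG41 again led, going from 24.7 and 29.5 to 2227 and 2367 TPM, a log2 fold change of 6.61 ± 0.08 (97.7-fold, edgeR adjusted p = 1.53e-16). ATG8 went from 53.5 and 61.9 to 222 and 266 TPM (2.29 ± 0.12, edgeR adjusted p = 7.68e-10). ATG7 went from 11.1 and 11.6 to 39.7 and 39.7 (2.03 ± 0.08, edgeR adjusted p = 4.41e-11). The 3 genes ranked among the largest rises in both heat shock comparisons. ATG29 went from 20.01 and 23.8 to 69.7 and 82.7 TPM (2.01 ± 0.15, edgeR adjusted p = 2.88e-08). ATG1 rose by 1.27 ± 0.09 (edgeR adjusted p = 1.55e-08), ATG9 by 1.10 ± 0.09 (edgeR adjusted p = 5.65e-08) and ATG14 by 1.56 ± 0.18 (edgeR adjusted p = 3.4e-06). The rises of the other members ranged from 0.35 for ATG11 to 1.75 for ATG34.

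The 2 falls were those of ATG5 and ATG22. ATG5 went from 37.8 and 37.2 to 18.6 and 18.1 TPM, a log2 change of −0.80 ± 0.10 (edgeR adjusted p = 5.57e-06). ATG22 went from 32.8 and 32.8 to 23.5 and 24.6 TPM (−0.22 ± 0.07, edgeR adjusted p = 0.0145). The call for ATG22 was lost without replicate 2 of the 30 °C group with 5ph-IAA (adjusted p = 0.0715), without replicate 1 of the 39 °C group with it (0.0719) and with DESeq2 (0.0569). ATG38, ATG27, ATG12 and ATG10 were not called, with log2 fold changes of 0.07 ± 0.17, 0.05 ± 0.07, −0.09 ± 0.17 and −0.10 ± 0.27. ATG27 changed sign with library totals alone (−0.28). ATG11 (0.35 ± 0.10, edgeR adjusted p = 0.00562) and ATG23 (0.36 ± 0.09, edgeR adjusted p = 0.00202) were called with TMM but not with library totals alone, where they stood at 0.02 and 0.03, and ATG11 also lost its call without replicate 1 of the 30 °C group with 5ph-IAA (adjusted p = 0.0588).

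Counted by role, the rises covered all 5 genes of the Atg1 complex, all 4 of the Atg8 cascade, 7 of 8 of the Atg9 and lipid group and all 7 of the selective group, and 1 each of the Atg12 cascade, the lipid kinase complex and the vacuolar pair. Outside the members ATG39 rose by 3.34 ± 0.09 and ATG42 by 1.88 ± 0.05. Beside 38% of all genes higher and 38.3% lower, 7 of the 8 Cvt cargo and hydrolase genes rose, led by PRB1 (2.18 ± 0.06) and the mannosidase AMS1 (1.69 ± 0.08). Of the 17 TORC1 and kinase genes 11 rose and 3 fell, among them LST8 (4.55 ± 0.05), which rose, and TPK3 (−0.88 ± 0.08) and SCH9 (−0.67 ± 0.06), which fell. Of the 20 partners 12 rose, led by SNX4 (1.16 ± 0.06) and VPS34 (0.87 ± 0.07), and YKT6 fell (−0.22 ± 0.06). Of the 12 regulators 8 rose, led by DHH1 (1.12 ± 0.06) and the GATA factor GAT1 (0.69 ± 0.07), and 2 fell, GCN4 (−0.71 ± 0.05) and the GATA factor GLN3 (−0.25 ± 0.10).

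5ph-IAA at 39 °C compared heat-shocked cells labelled with and without 5ph-IAA. Here most ATG genes were not called: 2 members rose, against 22.5% of genes tested, 6 fell, against 22%, and 24 were not called, with log2 fold changes from −0.21 to 0.16. The median of the members was −0.08 and that of all genes 0.00. With library totals alone 8 were higher and 5 lower, against 40.4% and 12.4% of genes, and on the log2(TPM + 1) scale 10 were higher and 2 lower, against 56.2% and 6.47%, while the median of all genes moved to 0.14 and 0.28. The ATG share of TPM was 0.442% and 0.437% without 5ph-IAA and 0.384% and 0.407% with it, a ratio of 0.899, but without ATG41 it was 0.146% in both libraries without 5ph-IAA and 0.161% and 0.171% with it, a ratio of 1.13 (exact permutation test, two-sided, p = 0.333 for each, the smallest it can give). Both libraries with 5ph-IAA exceeded both without it in TPM for 23 members, against 73% of genes, and lay below them for 5, against 11.5%.

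ATG5 had the largest change, from 39.5 and 41.9 TPM without 5ph-IAA to 18.6 and 18.1 with it, a log2 change of −1.44 ± 0.09 (edgeR adjusted p = 2.33e-08). It was the member that fell in all 4 comparisons of groups, and at 39 °C with 5ph-IAA it stood at 18.4 ± 0.363 TPM against 56.1 ± 0.851 in the control group. ATG41 went from 2959.7 and 2916 to 2227 and 2367 TPM (−0.65 ± 0.05, edgeR adjusted p = 7.95e-08). ATG1 went from 21.2 and 19.4 to 17.9 and 16.2 TPM (−0.55 ± 0.07, edgeR adjusted p = 4.95e-05). In all 3 genes both libraries with 5ph-IAA lay below both without it, as in 11.5% of all genes. ATG40 changed by −0.44 ± 0.06 (edgeR adjusted p = 8.4e-05), ATG23 by −0.34 ± 0.08 (edgeR adjusted p = 0.00297) and ATG38 by −0.58 ± 0.16 (edgeR adjusted p = 0.0104). The call for ATG38 was lost without replicate 1 of the heat shock group (adjusted p = 0.0825) or replicate 1 of the 39 °C group with 5ph-IAA (0.0708), and those of ATG1, ATG23, ATG38 and ATG40 were lost in log2(TPM + 1) values (adjusted p by limma = 0.0694, 0.628, 0.125 and 0.0663).

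ATG22 rose, from 13.5 and 13.5 to 23.5 and 24.6 TPM (0.54 ± 0.07, edgeR adjusted p = 4.73e-05), as it had at 30 °C. ATG34 rose from 33.3 and 32.2 to 45.5 and 48.7 TPM (0.23 ± 0.07, edgeR adjusted p = 0.0158). That call was lost without either heat shock replicate (adjusted p = 0.08 and 0.0798) and without replicate 2 of the 39 °C group with 5ph-IAA (0.11). Neither ATG8 (−0.10 ± 0.09, edgeR adjusted p = 0.404) nor ATG9 (−0.11 ± 0.08, edgeR adjusted p = 0.275) nor ATG14 (−0.09 ± 0.16, edgeR adjusted p = 0.673) was called. ATG39 was not called either (−0.04 ± 0.07, edgeR adjusted p = 0.654).

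In the other lists, read beside 22.5% of all genes higher and 22% lower, APE1 (−0.38 ± 0.04) and CPS1 (−0.57 ± 0.05) had the largest of 4 falls among 8 Cvt and hydrolase genes, and the carboxypeptidase PRC1 (0.40 ± 0.04) and PEP4 (0.16 ± 0.05) rose. Of the 17 TORC1 and kinase genes 3 rose, led by the AMP-activated kinase SNF1 (0.24 ± 0.05) and SCH9 (0.20 ± 0.06), and 4 fell, led by LST8 (−0.37 ± 0.04) and TOR1 (−0.26 ± 0.06). Of the 12 regulators 6 fell, led by GLN3 (−0.61 ± 0.10) and DHH1 (−0.48 ± 0.05), and 3 rose, led by PHO23 (0.32 ± 0.08) and the histone deacetylase RPD3 (0.15 ± 0.06). Of the 20 partners SNX4 (−0.37 ± 0.06) and YKT6 (−0.29 ± 0.06) fell and VAC8, a vacuolar membrane anchor (0.23 ± 0.05), rose.

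The interaction subtracts the heat shock change of cells without 5ph-IAA from that of cells with it, which equals the 5ph-IAA change at 39 °C minus that at 30 °C. It was called for 17 of the 32 members, against 48.9% of genes tested, lower for 16, against 22.9%, and higher for 1, against 26% (edgeR, adjusted p under 0.05). Its median over the members was −0.37, and over all genes it was 0.00. The log2 heat shock change was lower with 5ph-IAA in 29 of the 32 members, beside a median difference of 0.00 over all genes. Across the members the 2 heat shock changes, which share no library, had a Pearson's r of 0.959 and a Spearman's rho of 0.916 (0.923 and 0.908 without ATG41). The 5ph-IAA changes at 30 and 39 °C, which also share no library, had an r of 0.606 and a rho of 0.262 (0.569 and 0.191 without ATG41). These values describe the members, which share libraries and scaling factors. The count by sign and the correlations were not computed over all genes, so they do not set the members apart.

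**Figure D5:**
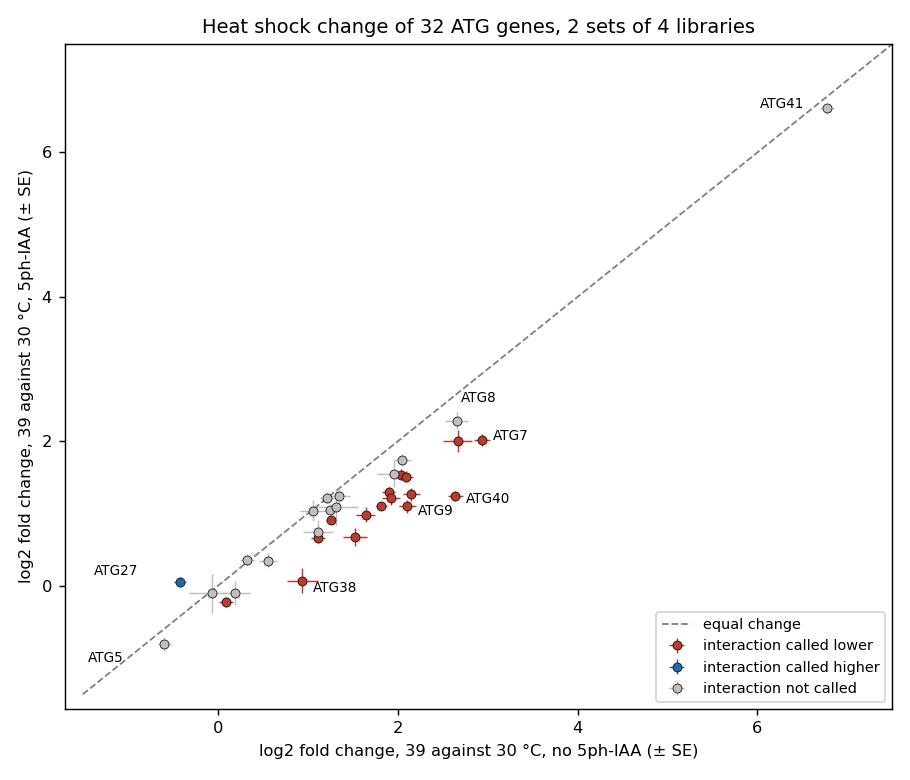
Log2 fold change on heat shock with 5ph-IAA (vertical axis) against that without it (horizontal axis) for the 32 ATG genes, ± SE, with the dashed line marking equal change and the colours showing the interaction call. The 16 genes called lower (red) lie below the line, ATG40 furthest from it at 1.24 against 2.64, and ATG41 lies near it at 6.61 against 6.77.

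ATG40 had the lowest value, with a heat shock change of 1.24 ± 0.07 with 5ph-IAA against 2.64 ± 0.08 without it, a difference of −1.40 ± 0.11 (edgeR adjusted p = 2.59e-07). Its level at 39 °C was 111 and 106 TPM without 5ph-IAA and 99.1 and 97.2 with it, while at 30 °C it was 16.1 and 15.6 without and 50.1 and 47.1 with it, so the groups differed most at 30 °C. ATG9 (−1.01 ± 0.13, edgeR adjusted p = 3.18e-05), ATG7 (−0.91 ± 0.13, edgeR adjusted p = 6.79e-05) and ATG1 (−0.89 ± 0.13, edgeR adjusted p = 7.4e-05) followed. Of the 17 members that rose with 5ph-IAA at 30 °C, 13 were not called at 39 °C, ATG1 and ATG40 fell there and ATG22 and ATG34 rose there too. The 30 °C change is itself a term of the interaction, so a high value there lowers the interaction by construction.

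ATG41, the gene with the largest heat shock change, had an interaction of −0.16 ± 0.15 that was not called (edgeR adjusted p = 0.434). Nor were ATG8 (−0.37 ± 0.19, edgeR adjusted p = 0.125), ATG14 (−0.41 ± 0.27, edgeR adjusted p = 0.228) and ATG5 (−0.21 ± 0.12, edgeR adjusted p = 0.185). ATG27 was the member with a higher value (0.47 ± 0.10, edgeR adjusted p = 0.00115), a call lost with library totals alone (0.22, adjusted p = 0.0704). RPL17B, its divergent neighbour, had an interaction of 0.70. The members with no call in any of the 5 comparisons were ATG10 and ATG12.

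Set against 22.9% of all genes lower and 26% higher, 5 of 8 Cvt and hydrolase genes had a lower interaction, led by APE1 (−1.10 ± 0.07) and AMS1 (−0.35 ± 0.12). A lower interaction was called for 6 of 20 partners, near that share, led by SNX4 (−0.70 ± 0.09) and VAM7 (−0.49 ± 0.19), and for 3 of 17 TORC1 and kinase genes, below it, among them TPK2 (−0.45 ± 0.08). Of the 12 regulators 4 were lower, led by GLN3 (−1.07 ± 0.14) and MSN2 (−0.84 ± 0.08), and 3 higher, led by GCN4 (0.57 ± 0.07) and SPT10 (0.54 ± 0.12). ATG39 had an interaction of −1.44 ± 0.18 (edgeR adjusted p = 2.5e-05) and ATG42 of −0.65 ± 0.07 (edgeR adjusted p = 7.03e-06).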

How the data were processed

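Poly-A RNA was sequenced from 8 libraries with a kit that does not mark strand, per the labels' protocols. The deposited tables give, for 6034 coding targets, estimated counts and TPM computed by the authors; the submitters' processing notes name kallisto, and its version, its transcript set and a genome build were not given in the sources used here. Estimated counts were rounded to whole numbers (6.89% to 7.51% were not whole). Groups came from the labels. The labels call replicates biological but name no separate cultures, so p-values measure only the spread between these libraries.

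Counts were scaled with TMM and filtered with filterByExpr, and 1 edgeR quasi-likelihood fit (edgeR 4.0.16, R 4.3.3) of all 8 libraries with a term per group tested 5 contrasts, two-sided, with Benjamini-Hochberg adjustment over 5734 genes and a threshold of 0.05. The code was tested on simulated counts. The text gives every member's call, with full statistics for ATG1, ATG8, ATG9, ATG14 and the 4 called members with the largest rise and fall in each contrast; of each other list it names the 2 called genes with the largest rise and fall, except for an item that is not reported here. Neighbours, ATG39, ATG31, ATG42 and ATG44 are named outside that rule. Alternatives were library totals alone, DESeq2 1.42.0 and its size factors, limma 3.58.1 on log2(TPM + 1) and other pseudocounts, no filter, TMM without ribosomal protein genes, thinned counts, a fit of the compared groups alone, a replicate block and leaving out each library. Members, lists and tests were chosen with earlier results of these data known, and the Rap1 motif was added after seeing the data. Promoter sequences and positions are from RefSeq R64.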

Additional observations from a re-analysis of the deposited data

Results flagged for a closer look

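The heat shock change differed between cells with and without 5ph-IAA, by the edgeR test of the interaction itself, in 17 of 32 members. That is near the share of 48.9% among all genes tested. By direction, 16 members were lower, against 22.9% of genes, and 1 was higher, against 26%. The log2 difference, with minus without 5ph-IAA, was below 0 for ATG40 (−1.40), ATG9 (−1.01), ATG7 (−0.91), ATG1 (−0.89), ATG38 (−0.87) and ATG17 (−0.85). It was also below 0 for ATG3 (−0.71), ATG19 (−0.71), ATG29 (−0.66), ATG15 (−0.66), ATG33 (−0.60) and ATG2 (−0.58), and for ATG20 (−0.49), ATG18 (−0.45), ATG13 (−0.35) and ATG22 (−0.31). It was above 0 for ATG27 (0.47). The call for ATG22 was lost with DESeq2 (adjusted p = 0.2) and, with edgeR, in 5 fits that left out 1 library (adjusted p = 0.0524 to 0.0811). The call for ATG29 was lost in edgeR without replicate 2 of the control (adjusted p = 0.202), of the heat shock group (0.103) or of the 30 °C group with 5ph-IAA (0.151), or without replicate 1 of the 39 °C group with 5ph-IAA (0.0889).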

How the results depend on the processing

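Library totals alone and limma on TPM moved the counts most; limma changes both the test and the scaling. RLE scaling and TMM without ribosomal protein genes each kept the call (higher, lower or not called) of 159 of 160 results for single members. With 5ph-IAA at 30 °C, library totals alone gave 27 members higher and 2 lower, beside 3962 and 503 of all 5734 genes. Each of the 3 limma settings, log2(TPM + 1), log2(TPM + 0.1) and log2(TPM + 5), gave 29 and 1. Of all genes 4865, 4862 and 4870 were higher in these settings and 276, 272 and 277 lower. For heat shock with 5ph-IAA, 4 were lower with library totals alone (3156 of all 5734 genes) and 1 with DESeq2 (2142 genes). At 39 °C with 5ph-IAA, 13 members were called with library totals alone (8 higher), against 52.7% of all genes. On the log2(TPM + 5) scale 15 were called, against 63.5%. On the log2(TPM + 1), (TPM + 0.1) and (TPM + 5) scales 10, 10 and 12 members were higher and 2, 2 and 3 lower. Of all 5734 genes 3224, 3189 and 3255 were higher on these scales and 371, 367 and 385 lower. The interaction was called for 27 members on the log2(TPM + 1) scale and 27 on log2(TPM + 0.1), against 63.4% and 63.3% of all genes. It was lower in 27, 27 and 25 members over the 3 limma settings. There 2948, 2938 and 2947 of 5734 genes were lower, against 1315 with TMM. It was higher in 0 members with library totals alone and in each limma setting, beside 908, 685, 692 and 667 of all genes. At an unadjusted p under 0.05, 1 member was higher with edgeR and library totals and 0 with limma; edgeR with TMM and DESeq2 each called 1.

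Sign changes are listed here only where the TMM fit or the alternative called the member. Others, with no call in either fit, are left out. The limma values follow the order of scales above. With 5ph-IAA at 30 °C the list held ATG10 (0.58, 0.62, 0.45), ATG23 (0.26, 0.28, 0.22), ATG41 (0.13, 0.14, 0.12) and ATG27 (0.03 in each). On heat shock with 5ph-IAA it held ATG27 (−0.18, −0.18, −0.17). At 39 °C it held ATG33 (0.29, 0.29, 0.28) and ATG19 (0.22, 0.22, 0.21). ATG20 was listed there for log2(TPM + 5) alone (0.21), the scale on which it was called. In the interaction the list held ATG23 (−0.31, −0.33, −0.26) and, in the first pair, ATG21 (−0.31, −0.34). With library totals alone the list held ATG23 at 30 °C (0.03) and ATG27 on heat shock with 5ph-IAA (−0.28). ATG10, for instance, is left out, as it went from −0.03 to 0.37 at 30 °C with no call in either fit. Without ATG41 the ATG share at 39 °C was 0.0197 percentage points of TPM higher with 5ph-IAA. The causes were not tested.

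Leaving out 1 library gave 1 to 2 members lower on heat shock with 5ph-IAA, with 1 without replicate 2 of the 30 °C or replicate 1 of the 39 °C group with 5ph-IAA. It gave 1 to 2 higher at 39 °C, with 1 without replicate 2 of either 39 °C group. Of 160 results for single members 157 kept their call (higher, lower or not called) with DESeq2, 129 with library totals alone and 118 on log2(TPM + 1). A result with no call in either fit counts as kept even where its sign changed. Deviations of replicates from their group means correlated at −0.048 to 0.165 between groups. The largest values were those between 30 and 39 °C without 5ph-IAA (0.111) and with it (0.165). A pairing of these temperatures by replicate number was not modelled. A replicate block, as a term shared by all groups, left the counts of called members at 29, 21, 28, 8 and 17. A group of 2 libraries cannot give an exact p below 0.333, which limits the summed shares.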

Other observations

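Around ATG34 and ATG19, chosen here after their values were seen, the neighbouring genes rose as well on heat shock without 5ph-IAA. PHM7, 382 bases upstream of ATG34, went from 1.13 and 1.69 TPM to 107 and 98.7 (log2 fold change 6.05 ± 0.10). IRA2, an inhibitor of Ras that lies 1095 bases downstream of ATG19, rose by 3.45 ± 0.06 on the log2 scale.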
